A study of Homo sapiens with 4 samples.

Results

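Peaks of N6-methyladenosine (m6A) that lay where exons of 2 genes run on opposite strands were examined in OE-19 cells. A peak was chosen when its summit, the position of its highest signal, fell in exons of at least 2 genes of GENCODE version 44 that together covered both strands of hg38. These peaks are called overlap peaks below. There were 1001 of them among the 24607 peaks of replicate 1, and 652 among the 19318 peaks of replicate 2. Merged across the lists they formed 1082 loci, of which 542 held an overlap peak of both replicates.

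The samples came from OE-19, an established cell line of adenocarcinoma of the esophagogastric junction (AEG), grown in RPMI1640 with serum and given no treatment that the labels name. Methylated RNA immunoprecipitation sequencing (meRIP-seq) pulls down RNA with an antibody against m6A and calls the regions where the reads pile up as peaks. The series held 2 samples of m6A immunoprecipitation (IP) and 2 input samples, and each IP sample had its own peak list, while peaks of the input samples were not analysed here. All samples are of 1 cell line, and the study calls the replicates biological, while the labels do not say whether they were separate cultures.

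m6A is placed on nascent RNA polymerase II transcripts by a methyltransferase complex built around METTL3 and METTL14. Its preferred site is DRACH, in which D stands for any base but C, R for a purine and H for any base but G, and GGAC is the most used core. Many human genes share exonic sequence with a neighbour on the other strand, often at their 3′ ends or through an antisense long noncoding RNA (lncRNA). The site reads correctly on 1 strand only, so it can point to the transcript that carries the mark. The deposited lists give no strand for any peak, although the labels name a directional library kit, and the sequence around the summit was therefore read on both strands.

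The sequences below show the GGAC nearest to the summit of the replicate 1 peak in overlaps chosen from those with the highest fold enrichment. Each is given 5′ to 3′ on the strand of the gene named, with GGAC in capitals. The first set comes from pairs of 2 protein-coding genes in which only 1 strand held GGAC within 50 nt of the summit in both lists.
GPR39, opposite LYPD1, chr2:132645697-132645724, plus strand: cagggatggaatGGACactggaggcttt
ABI2, opposite RAPH1, chr2:203439611-203439638, plus strand: tggttctgctctGGACatgcgggaggag
RNF215, opposite CCDC157, chr22:30375552-30375579, minus strand: gcggatgtcgttGGACtgcacttgcctc
MDM2, opposite CPM, chr12:68842258-68842285, plus strand: acggaaagttcaGGACatcaaagaagtc
SFT2D3, opposite WDR33, chr2:127702236-127702263, plus strand: cggccgagctgaGGACtgcacgccgctg
MARVELD3, opposite PHLPP2, chr16:71640829-71640856, plus strand: tctcacctggatGGACtgccagctggca
DEXI, opposite CIITA, chr16:10929237-10929264, minus strand: acttcaaactgcGGACacacgcaaaagc
ZNF3, opposite ZSCAN21, chr7:100064772-100064799, minus strand: gacaccttctgaGGACctcctgcctgcc

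The second set comes from overlaps of a protein-coding and a noncoding gene in which GGAC lay on the coding strand alone in both lists.
ZNF821, opposite ENSG00000279592, chr16:71860063-71860090, minus strand: tggggtggagttGGACagccagcttctg
DLX6, opposite DLX6-AS1, chr7:97010593-97010620, plus strand: gagaagcattttGGACtcctgcattttt
WDR89, opposite ENSG00000258800, chr14:63599106-63599133, minus strand: agaagatgctttGGACtatttgattggt
CHRM1, opposite ENSG00000257002, chr11:62910774-62910801, minus strand: ctggctggccctGGACtatgtggccagc

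The third set comes from the same kind of overlap with GGAC on the noncoding strand alone in both lists.
KRTAP5-AS1, opposite KRTAP5-2, chr11:1597744-1597771, plus strand: gacacaacagttGGACtggcagcaacag
EVX1-AS, opposite EVX1, chr7:27242864-27242891, minus strand: ggagcgcggtctGGACcgcgaccgcggc
ENSG00000274383, opposite ANKDD1A, chr15:64951193-64951220, minus strand: ttacaggcccttGGACccatcctcatga
ZFHX3-AS1, opposite ZFHX3, chr16:72788495-72788522, plus strand: tctccttcttggGGACaggcaggggttc

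The fourth set shows overlaps in which both strands held GGAC in both lists, so that GGAC by its presence named neither gene. The plus-strand GGAC shown is followed by G in both overlaps and is therefore not a DRACH, whereas the minus-strand GGAC shown is.
ENSG00000287286, chr3:197674471-197674498, plus strand: acccaaataagtGGACgaaatgcccatg
RUBCN, chr3:197674492-197674519, minus strand: cagcagagaataGGACtacgtcatgggc
CRYBG3, chr3:97943371-97943398, plus strand: tcattgtcttgtGGACgtggaaaggaag
RIOX2, chr3:97943392-97943419, minus strand: ccaggagtgtgaGGACagtagcttcctt

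First, the overlap peaks were counted and placed. They made up 4.97% of the 20134 summits in an annotated exon in replicate 1 (95% Wilson confidence interval 4.68% to 5.28%). In replicate 2 they made up 4.97% of 13113 exonic summits (4.61% to 5.36%). Bases in exons of both strands were 2.32% of all exonic bases of the annotation, a share that takes no account of which genes OE-19 cells express. More than 2 genes lay at the summit of 54 overlap peaks of replicate 1 (5.39%) and 35 of replicate 2 (5.37%), as at MDM2, RUBCN and LINC00339. There 1 gene per strand was kept, protein-coding genes first. The overlap peaks of replicate 1 then belonged to 858 gene pairs and those of replicate 2 to 562, and 497 of the 923 pairs in either list were in both. Most pairs had a single overlap peak, 86.9% in replicate 1 and 86.8% in replicate 2, and the most for 1 pair were 5 and 4. Of the 8862 gene pairs annotated with exonic overlap on opposite strands, 985 (11.1%) had an overlap peak in at least 1 list. This count takes every pair of genes at a summit, and so exceeds the 923. All intervals given here cover counting error alone.

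Many of the overlaps rested on alternative transcripts. In replicate 1, 575 of the 1001 overlap peaks (57.4%, 54.4% to 60.5%) had the summit in an exon of the Ensembl canonical transcript on both strands, and in replicate 2, 363 of 652 (55.7%, 51.8% to 59.4%). The rest overlapped an exon of an alternative transcript on at least 1 strand. The number of peaks in an overlap therefore depends on how many transcripts of a gene are counted. Regions, exon numbers and stop codons were read from the canonical transcript where its exons held the summit. Elsewhere they came from the transcript there with the longest coding sequence. A stop codon given below may thus be that of an alternative transcript.

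The gene pairs were then sorted by arrangement. Tail-to-tail pairs, whose 3′ ends overlap, held 428 overlap peaks in replicate 1 (42.8%, 39.7% to 45.8%) and 305 in replicate 2 (46.8%, 43.0% to 50.6%). Head-to-head pairs, whose 5′ ends overlap, held 228 (22.8%, 20.3% to 25.5%) and 110 (16.9%, 14.2% to 19.9%). Nested pairs, in which 1 gene lies within the other, held 345 (34.5%, 31.6% to 37.5%) and 237 (36.3%, 32.7% to 40.1%). Of all bases in exons of both strands, 43.8% are tail-to-tail, 17.4% head-to-head and 38.8% nested. The tail-to-tail share of each list held this value within its interval, whereas in replicate 1 alone the head-to-head share lay above its value and the nested share below.

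**Figure D1:**
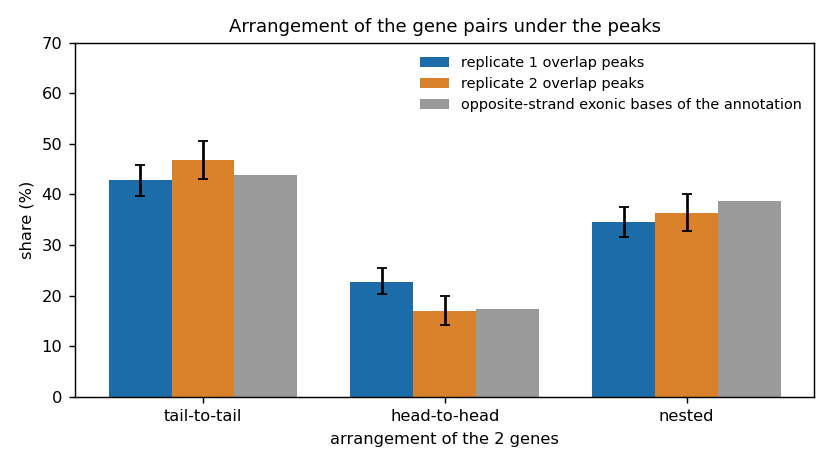
The share of overlap peaks (y axis, percent) in each arrangement of the gene pair (x axis) is plotted for replicate 1 and replicate 2, with 95% Wilson intervals as error bars, beside the share of all annotated opposite-strand exonic bases. Tail-to-tail pairs were the most frequent in both lists (42.8% and 46.8%), and the head-to-head share was 22.8% in replicate 1 against 16.9% in replicate 2.

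By gene type, 362 overlap peaks of replicate 1 (36.2%) and 227 of replicate 2 (34.8%) lay in 2 protein-coding genes. A protein-coding and a noncoding gene shared 570 (56.9%) and 386 (59.2%). The noncoding gene was a lncRNA in 528 of these 570 peaks and in 357 of the 386, and a pseudogene in 18 and 13. The remaining 69 peaks (6.89%) and 39 peaks (5.98%) lay in noncoding genes alone. In the annotation, 30.4% of the shared bases belong to 2 protein-coding genes, 54.9% to 1 and 14.8% to none. In the pairs of 2 protein-coding genes, both summit positions were 3′ UTR in 137 of 362 peaks of replicate 1 (37.8%) and 94 of 227 of replicate 2 (41.4%), and 3′ UTR against coding sequence (CDS) in 86 (23.8%) and 69 (30.4%).

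The fold enrichment of the overlap peaks, the ratio of IP signal over the caller's background at the summit, ranged from 1.47 to 23.9 in replicate 1, with a median of 5.14 and quartiles of 3.75 and 7.56. In replicate 2 it ranged from 1.41 to 23.5, with a median of 4.48 and quartiles of 3.27 and 6.41. Exonic peaks with genes on 1 strand alone had medians of 5.31 and 4.83, and reached up to 31.6 and 38.1. Peaks in 2 noncoding genes had medians of 6.65 (n = 69) and 6.09 (n = 39), those in a coding and a noncoding gene 5.22 and 4.599, and those in 2 coding genes 4.85 and 4.26. The GC content of the window searched for motifs, 50 nt on each side of the summit, had a median of 60.4% and 59.4%, against 58.4% and 56.4% for exonic peaks on 1 strand.

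In both lists, 534 pairs of overlap peaks were each other's largest overlap. In 444 of them (83.1%) the value of replicate 1 was the higher, with a median log2 ratio of 0.47 (quartiles 0.14 and 0.78). Across these pairs log2 fold enrichment had Pearson's r = 0.706 and Spearman's rho = 0.681. The pairs are peaks of the same 2 libraries and not independent samples. Their summits were a median of 24 bp apart.

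**Figure D2:**
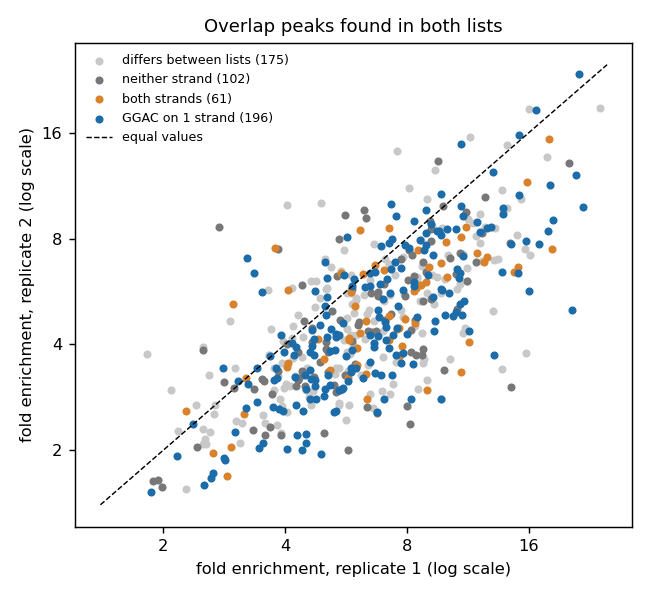
Each of the 534 points is an overlap peak found in both lists, with its fold enrichment in replicate 1 (x axis, log scale) against replicate 2 (y axis, log scale), coloured by the strand on which GGAC lay within 50 nt of both summits. Most points (83.1%) lie below the dashed line of equal values. Values of replicate 2 reached 23.5 with GGAC on 1 strand, 15.4 with it on both and 13.3 with it on neither.

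Overlap peaks were found in both replicates about as often as other exonic peaks. Of the overlap peaks of replicate 1, 60.4% (57.4% to 63.4%) overlapped a peak of replicate 2, against 60.2% of the exonic peaks on 1 strand and 60.2% of all exonic peaks. In replicate 2 the shares were 95.2% (93.3% to 96.6%), 94.98% and 95%. The differences of 0.20 and 0.27 percentage points did not pass Fisher's exact test (adjusted p = 0.921 and 0.911). All tests were two-sided, with p-values adjusted by Benjamini-Hochberg over the 16 tests made. When an overlap of at least 50% of both peaks was required, the difference turned to −4.34 points in replicate 2 (Fisher's exact test, adjusted p = 0.016).

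To see how well GGAC names a strand, exonic summits with genes on 1 strand alone were read first. In replicate 1, 49.9% of 19133 windows held GGAC on the strand of the gene and 31.1% on the opposite strand (exact McNemar test, adjusted p = 5.94e-296). In replicate 2 the shares were 51.8% and 29.1% of 12461 windows (exact McNemar test, adjusted p = 1.16e-284). Where GGAC lay on exactly 1 strand, it was the strand of the gene in 68.4% (67.5% to 69.3%) and 72.2% (71.1% to 73.3%) of windows. For summits in lncRNA genes alone this share was 65.3% (61.4% to 69.1%, n = 580) and 69.0% (64.3% to 73.3%, n = 406). The motif thus named the annotated strand more often than not, and missed it in a sizeable minority of single windows. Here and below, p-values treat peaks as the units and cover the counting error among peaks of 1 library.

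In the overlap peaks, GGAC lay on exactly 1 strand in 523 windows of replicate 1 (52.2%, 49.2% to 55.3%) and 350 of replicate 2 (53.7%, 49.8% to 57.5%). Among all exonic summits of the lists the shares were 51.1% and 51.2%. Both strands held GGAC in 171 (17.1%) and 103 (15.8%) windows, while 30.7% and 30.5% of windows held it on neither. Against exonic peaks on 1 strand, the share with GGAC on exactly 1 strand differed by 1.21 and 2.59 points, which did not pass Fisher's exact test (adjusted p = 0.521 and 0.265). DRACH, which includes every GGAC not followed by G, lay on both strands in 593 (59.2%) and 412 (63.2%) of the overlap windows, on 1 strand in 370 (37.0%) and 212 (32.5%), and on neither in 38 and 28. In exonic windows on 1 strand, 61.8% and 65.0% held DRACH on both strands. So DRACH by its presence left most windows undecided. Where GGAC lay on 1 strand and the DRACH counts of the strands differed, the GGAC strand had more DRACH in 366 of 432 windows (84.7%) and 241 of 292 (82.5%), a comparison in which the motifs share letters.

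Where a protein-coding and a noncoding gene overlapped, the coding strand carried GGAC more often. In replicate 1, 50.5% of 570 windows held GGAC on the coding strand and 36.3% on the noncoding strand, with 188 windows on the coding strand alone and 107 on the noncoding strand alone (exact McNemar test, adjusted p = 1.49e-05). In replicate 2 the shares were 51.3% and 38.6% of 386 windows, with 128 and 79 on 1 strand alone (exact McNemar test, adjusted p = 0.00174). Of the windows with GGAC on exactly 1 strand, 63.7% (58.1% to 69.0%) and 61.8% (55.1% to 68.2%) had it on the coding strand. With a window of 25 nt the difference in replicate 2 was 4.40 points and no longer passed the exact test (adjusted p = 0.262). Nearly all overlap peaks of replicate 2 were also in the list of replicate 1, so replicate 2 is no separate sample of overlaps.

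Other orders of the same bases were read in the same windows. Over the 11 other orders of G, G, A and C, the mean share on the coding strand was 49.6% in replicate 1 and 48.1% in replicate 2, and the highest was 57.3% and 54.6%. The lowest was that of CAGG in both lists, at 37.7% (114 windows on the coding strand alone against 188) and 38% (76 against 124), which is about as far below 50% as GGAC was above it. These shares were not tested. In exonic windows on 1 strand the mean shares were 51.2% and 51.7%, and those of CAGG 42.3% and 42.7%.

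**Figure D3:**
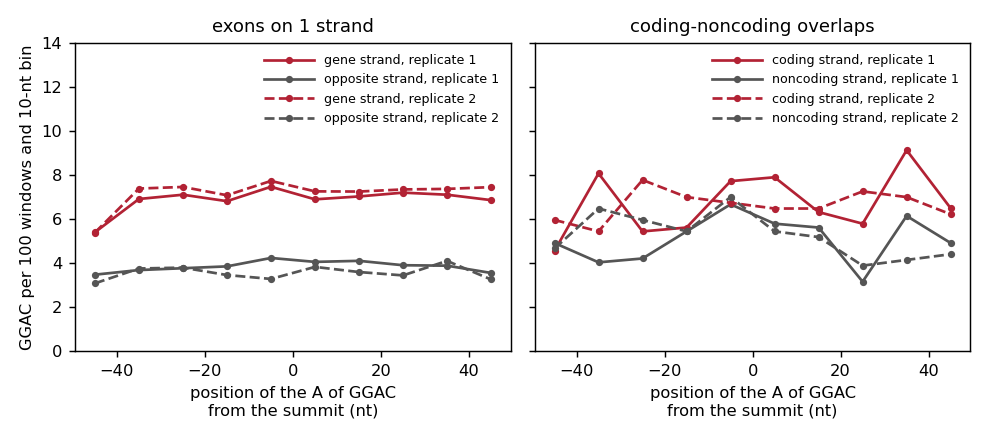
The number of GGAC per 100 windows in bins of 10 nt (y axis) is plotted against the position of its A from the summit (x axis, nt), for exonic summits on 1 strand (left) and overlap peaks of a coding and a noncoding gene (right), with solid lines for replicate 1 and dashed lines for replicate 2. On the left the gene strand stayed between 5.38 and 7.73 and the opposite strand between 3.08 and 4.23; on the right the coding strand ranged from 4.56 to 9.12 and the noncoding strand from 3.16 to 6.99. The leftmost bin holds fewer possible positions.

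The share on the coding strand was next set beside protein-coding exons with no gene opposite, where GGAC on exactly 1 strand was on the gene's strand in 68.6% and 72.7% of windows. The overlap peaks were 4.88 points lower in replicate 1, which did not pass Fisher's exact test (adjusted p = 0.124), and 10.8 points lower in replicate 2 (adjusted p = 0.00174). With exons of canonical transcripts alone the difference in replicate 2 was −6.20 points (Fisher's exact test, adjusted p = 0.183). With the strand of more DRACH in place of that of GGAC it was −10.4 points in replicate 1 (Fisher's exact test, adjusted p = 7.11e-06).

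The share varied with the region of the coding gene. In the 5′ UTR, GGAC was on the coding strand in 30 of 63 such windows in replicate 1 (47.6%, 35.8% to 59.7%) and 19 of 34 in replicate 2 (55.9%, 39.5% to 71.1%). In the CDS it was 89 of 127 (70.1%, 61.6% to 77.4%) and 59 of 91 (64.8%, 54.6% to 73.9%). In the 3′ UTR it was 67 of 93 (72.0%, 62.2% to 80.1%) and 48 of 74 (64.9%, 53.5% to 74.8%). Coding exons on 1 strand alone gave 58.3% and 64.9% in the 5′ UTR, 70.1% and 74.0% in the CDS and 70.2% and 72.7% in the 3′ UTR. Where the coding gene had only an exon of a noncoding transcript at the summit, GGAC was on its strand in 2 of 12 (16.7%) and 2 of 8 (25%). Differences between regions were not tested. By arrangement the coding share lay between 60.0% and 65.9% in both lists, with intervals that overlap throughout.

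Further clues to the strand that do not use the motif were then compared with it. The first was whether 1 gene of the pair alone had another peak in an exon free of the other strand, which held for 563 overlap peaks of replicate 1 (56.2%) and 344 of replicate 2 (52.8%). GGAC on exactly 1 strand pointed to that gene in 180 of 292 windows (61.6%, 55.9% to 67.0%, exact binomial test against 50%, adjusted p = 0.00033). In replicate 2 it did so in 104 of 175 (59.4%, 52.0% to 66.4%, exact binomial test, adjusted p = 0.0272). This clue named the coding gene in 326 of 359 coding and noncoding overlaps (90.8%) and 212 of 227 (93.4%), so it repeats in large part the comparison of coding and noncoding strands. Within pairs of 2 protein-coding genes the share was 57.8% (n = 90, adjusted p = 0.272) in replicate 1 and 50% (n = 50, adjusted p = 1) in replicate 2.

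The second clue was the strand over which the peak itself extended into exons of 1 strand alone. Exons of both strands covered a median of 90.9% (replicate 1) and 96.9% (replicate 2) of the length of a peak, and 569 (56.8%) and 347 (53.2%) overlap peaks covered more bases of 1 strand alone than of the other. GGAC was on that strand in 181 of 299 windows (60.5%, 54.9% to 65.9%, adjusted p = 0.00103) and 117 of 186 (62.9%, 55.8% to 69.5%, adjusted p = 0.00142) by the exact binomial test. In pairs of 2 protein-coding genes the shares were 58.3% (n = 103, adjusted p = 0.203) and 62.3% (n = 61, adjusted p = 0.165) by the same test. The extension named the coding gene in 208 of 353 coding and noncoding overlaps (58.9%) and 140 of 215 (65.1%). So this clue, too, is not free of the comparison of coding and noncoding strands. The third clue was a stop codon of 1 gene alone within 200 nt of the summit, in pairs of 2 protein-coding genes. GGAC was on the strand of that gene in 37 of 64 windows (57.8%, 45.6% to 69.1%, adjusted p = 0.321) and 34 of 53 (64.2%, 50.7% to 75.7%, adjusted p = 0.0855) by the exact binomial test. With the strand of more DRACH in place of that of GGAC, the shares were 67.7% (n = 96, adjusted p = 0.0012) and 67.6% (n = 71, adjusted p = 0.00542) by the same test.

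The clues did not always name the same gene. Where another peak and the extension of the peak both named a strand, they named the same one in 210 of 341 overlap peaks of replicate 1 (61.6%) and 146 of 207 of replicate 2 (70.5%). Of the windows with GGAC on exactly 1 strand in which both did so, GGAC was on their strand in 74 of 113 (65.5%, 56.3% to 73.6%) and 50 of 78 (64.1%, 53.0% to 73.9%). Of the 107 and 79 windows with GGAC on the noncoding strand alone, the noncoding gene alone had a further peak in 6 (5.61%) and 4 (5.06%). Such peaks were rare whatever the motif. Over all coding and noncoding overlaps in which a further peak named 1 gene, it named the coding gene in 90.8% and 93.4%. These counts therefore do not bear on the GGAC strand.

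**Figure D4:**
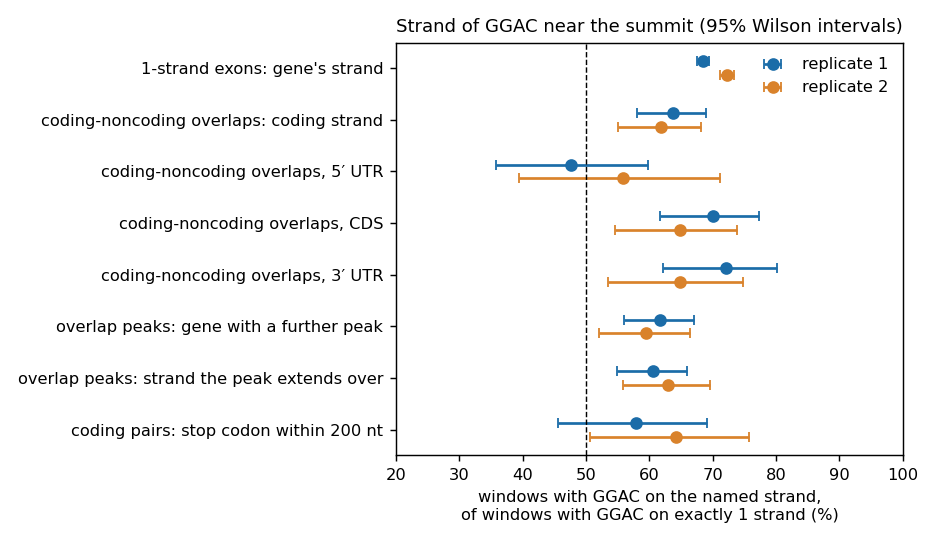
The share of windows with GGAC on the named strand, of windows with GGAC on exactly 1 strand (x axis, percent), is plotted for each comparison (y axis) with 95% Wilson intervals for replicate 1 and replicate 2. The dashed line marks 50%. Exonic summits on 1 strand (68.4% and 72.2%) have the narrowest intervals, and the intervals of the 5′ UTR include 50% in both lists. The overlap shares in the CDS and 3′ UTR lie slightly above 68.4% in replicate 1 (70.1% and 72.0%). In replicate 2 they lie below 72.2% (64.8% and 64.9%).

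Calls at single loci were compared between the lists. Of the 534 pairs of overlap peaks, 216 had GGAC on exactly 1 strand in both lists, and the strand was the same in 196. Both lists were read on the same genome sequence, with summits a median of 24 bp apart. The paired windows thus shared much of their sequence, and this agreement is no independent support for a strand. Taking for each gene pair the locus with the highest fold enrichment in both lists, 486 pairs remained. Of the 165 pairs of 2 coding genes among them, 59 had GGAC on the same single strand in both lists, 11 on both strands and 34 on neither. Of the 291 coding and noncoding pairs, 109 had it on 1 strand in both lists, on the coding strand in 74 and on the noncoding strand in 35. The remaining 30 were pairs of 2 noncoding genes, of which 10 had it on 1 strand in both lists. The overlaps named next were chosen by rank of fold enrichment within each class.

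In pairs of 2 protein-coding genes, GGAC and the extension of the peak pointed the same way at GPR39, MDM2, RNF215 and MARVELD3 in both lists. The peak opposite LYPD1, which encodes a Ly6 domain protein, reached fold enrichments of 18.1 and 11.3 in replicates 1 and 2. It lay in the last exon of GPR39 (exon 2 of 2), which encodes a zinc-sensing receptor, 112 nt and 88 nt past its stop codon. GPR39 alone had further peaks (2 and 1), and the peak extended over 242 and 234 bases of its strand alone and 0 of LYPD1.

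The MDM2 peak had fold enrichments of 17.0 and 7.75 in the respective lists, and lay in exon 11 of 11 of MDM2, which encodes a ubiquitin ligase. Opposite it was the last exon of CPM (exon 6 of 6), which encodes carboxypeptidase M, within 4 nt and 31 nt of its stop codon. GGAC was found 2 times on the MDM2 strand and 0 times on the CPM strand in both windows, and the peak covered 777 and 569 bases of MDM2 exon alone. So here the motif and the extension named MDM2, while the nearer stop codon was that of CPM, the stop codon of MDM2 being 2426 nt and 2391 nt away.

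RNF215, which encodes a RING finger protein, overlapped CCDC157 with fold enrichments of 13.8 and 9.75. The RNF215 strand held GGAC 2 and 3 times and the CCDC157 strand 0 times, and the peak covered 606 and 420 bases of RNF215 exon alone. The summit lay in CDS of CCDC157 and in a 3′ UTR annotated for RNF215. MARVELD3, which encodes a tight junction protein, overlapped the phosphatase gene PHLPP2 with 12.6 and 8.55. GGAC was on the MARVELD3 strand alone, the peak covered 276 and 342 bases of MARVELD3 exon alone and 0 of PHLPP2, and both genes had further peaks (3 each, then 2 each). DRACH was found 1 time on the MARVELD3 strand in each list, against 1 and 2 on that of PHLPP2. The nearer stop codon was that of PHLPP2, at 22 nt and 39 nt against 145 nt and 162 nt for MARVELD3.

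At the other named coding pairs the extension of the peak was on the other strand or named none. The peak in the 3′ UTR of SFT2D3, a single-exon gene of a vesicle transport protein nested in WDR33, had fold enrichments of 15.7 and 7.88 and lay 113 nt and 96 nt past the SFT2D3 stop codon. GGAC was on the SFT2D3 strand alone, but the further peaks (4 and 5) were all in WDR33, which encodes a polyadenylation factor, and the peak had no base on 1 strand alone. At ABI2, which encodes a subunit of the WAVE complex, the fold enrichment was 10.9 and 14.9. The summit lay 145 nt and 149 nt before the stop codon of RAPH1, a regulator of lamellipodia, and over 12 kb (12234 and 12238 nt) past that of ABI2, yet GGAC and the further peaks (2 and 1) were on the ABI2 strand.

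The peak between DEXI and CIITA, the activator of MHC class II genes, differed most between the lists among the named overlaps, with 20.5 in replicate 1 and 5.0 in replicate 2. GGAC lay 2 times on the DEXI strand and 0 times on the CIITA strand in both, while the peak extended over 96 and 84 bases of CIITA exon alone. At the zinc finger genes ZNF3 and ZSCAN21, with 9.72 and 8.17, GGAC was on the ZNF3 strand, and the summits lay 29 nt and 8 nt past the ZNF3 stop codon. There the peak extended over 53 and 25 bases of ZSCAN21 exon alone and 0 of ZNF3, and ZSCAN21 had 1 further peak in each list against 3 and 1 in ZNF3.

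**Figure D5:**
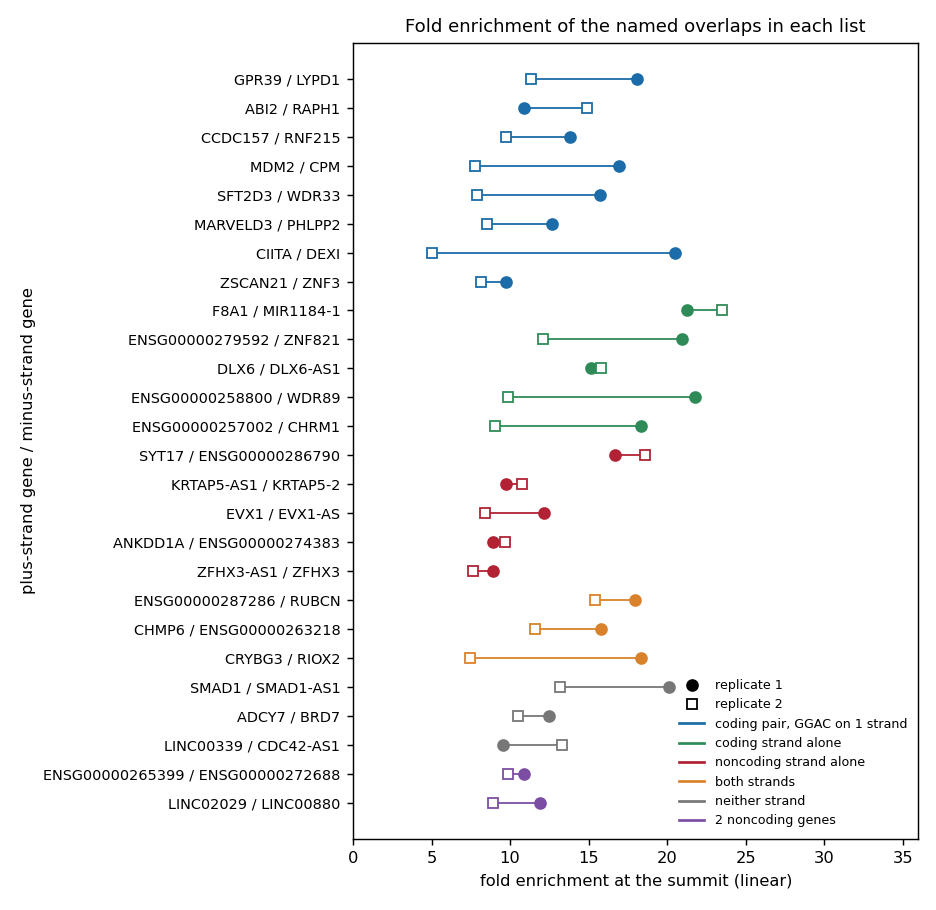
Fold enrichment at the summit (x axis, linear) is plotted for each named overlap (y axis, plus-strand gene / minus-strand gene), with filled circles for replicate 1, open squares for replicate 2 and a line that joins them, coloured by the class of GGAC in both lists. CIITA and DEXI had the widest gap (20.5 and 5.0), and F8A1 had the highest value of replicate 2 (23.5).

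Among overlaps of a coding and a noncoding gene with GGAC on the coding strand, the highest over both lists was F8A1 with the microRNA gene MIR1184-1, at 21.2 and 23.5. F8A1 has near-identical copies on chromosome X, so reads could be split between them and this value is uncertain. ZNF821 followed with 21.0 and 12.1, in the CDS of its last exon (exon 8 of 8), 53 nt and 70 nt before the stop codon. WDR89 had 21.8 and 9.86, and its peak covered 774 and 257 bases of WDR89 exon alone. CHRM1, which encodes a muscarinic acetylcholine receptor, had 18.3 and 9.02, with 2 and 1 further peaks in CHRM1 and 282 and 341 bases of its exon alone. At DLX6, a homeobox gene, the values were 15.1 and 15.8, but in replicate 1 the further peak was in DLX6-AS1 and in replicate 2 there was none.

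The 5 named overlaps with GGAC on the noncoding strand had lower fold enrichment after the first. They were the highest of 35 such pairs, against 74 with GGAC on the coding strand, and the whole classes were not compared. At SYT17, a synaptotagmin gene, the values were 16.7 and 18.6. GGAC was on the strand of the lncRNA ENSG00000286790, whereas the further peaks (2 and 1) were in SYT17, whose exon 5 of 8 held the summit. KRTAP5-AS1, opposite the keratin-associated gene KRTAP5-2, had 9.74 and 10.7, with GGAC 5 times on its strand and 0 times on the other, and 1 further peak of its own in each list. It was the only one of the 5 in which another peak named the noncoding gene.

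At EVX1, a homeobox gene, the head-to-head overlap with EVX1-AS had 12.1 and 8.37. GGAC was on the EVX1-AS strand, but the further peaks (2 in each list) and 495 bases of the peak were on EVX1 alone. At ZFHX3, a large transcription factor gene, the values were 8.91 and 7.65. GGAC was on the strand of ZFHX3-AS1, in replicate 1 at 49 nt from the summit, near the edge of the window. DRACH was found 1 and 2 times on the ZFHX3 strand against 0 and 1 on the other. The 0 arose at the edge of the window, since the A that follows this GGAC and makes it a DRACH fell outside. Further peaks, 11 and 8, were in ZFHX3. At ANKDD1A, with 8.90 and 9.65, no further peak was found on either strand, and the peak extended over 33 and 2 bases of the lncRNA ENSG00000274383.

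GGAC on both strands left RUBCN, CHMP6 and CRYBG3 undecided by its presence. The only GGAC on the CRYBG3 strand is followed by G and is not a DRACH, unlike that of RIOX2. RUBCN, which encodes the autophagy regulator Rubicon, had 18 and 15.4, and GGAC was found 2 times on each strand, with further peaks (2 and 1) in RUBCN alone. CHMP6, which encodes an ESCRT-III subunit, had 15.8 and 11.6, and its peak covered 558 and 533 bases of CHMP6 exon alone. CRYBG3 and RIOX2, a ribosomal oxygenase gene, had 18.3 and 7.46, and CRYBG3 had 7 and 6 further peaks against 1 and 0.

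GGAC was on neither strand at SMAD1, which encodes a signal transducer of bone morphogenetic proteins, with 20.1 and 13.2. DRACH was found 3 and 2 times on the SMAD1 strand against 1 on that of SMAD1-AS1, and further peaks (3 and 1) were in SMAD1 alone. ADCY7, an adenylyl cyclase gene, and BRD7, a chromatin remodelling gene, had 12.5 and 10.5 with DRACH on both strands. LINC00339 and CDC42-AS1 had 9.57 and 13.3, higher in replicate 2, and likewise carried DRACH on both strands (4 and 2 in each list). The other 2 pairs of noncoding genes, ENSG00000272688 with ENSG00000265399 (10.9 and 9.88) and LINC00880 with LINC02029 (11.9 and 8.94), had GGAC on the minus strand alone.

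Gene lists were looked up last. Of 8 genes of the G1-S transition (CDC25A, CDK4, CDC6, WEE1, CCNE2, CHEK2, E2F1 and E2F3), 0 had an overlap peak in either list. Overlap peaks were 4.97% of exonic summits in each list, so a count of 0 among 8 genes says little. The choice rested on the summit, and whether peaks of these genes reach into exons of the other strand was not examined. Of 16 m6A regulators, 1 had an overlap peak in replicate 1 and 0 in replicate 2, which says as little beside that share. The regulator was ZC3H13, a subunit of the methyltransferase complex, at the head-to-head overlap with CPB2-AS1. Its fold enrichment was 8.53, GGAC was on neither strand, and 6 further peaks were in ZC3H13.

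Of 14 pairs known for their opposite-strand overlap, 5 had an overlap peak, the same 5 in both lists. Of all annotated opposite-strand gene pairs, 985 of 8862 (11.1%) had one in at least 1 list. The difference between these shares was not tested. FGF2, a growth factor gene, and NUDT6, long described as its antisense gene, had 7.15 and 6.16, with GGAC on the NUDT6 strand alone and DRACH 5 times there against 1 in both lists. The summit lay 34 nt and 15 nt past the NUDT6 stop codon.

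By GGAC, a further 3 pairs gave a strand in 1 list only. At BACE1, which encodes beta-secretase, and BACE1-AS, the values were 6.17 and 3.27, with GGAC on the BACE1 strand in replicate 1. DRACH there changed sides, with 3 on the BACE1 strand against 0 in replicate 1 and 0 against 2 in replicate 2. MSH6, a mismatch repair gene, and FBXO11 had 9.71 and 5.60, with GGAC on the FBXO11 strand in replicate 2 while most further peaks (3 and 2) were in MSH6. ERCC1, an excision repair gene, and POLR1G, an RNA polymerase I subunit gene, had 11.1 and 4.45, with GGAC on the POLR1G strand in replicate 2. The other 9 pairs, among them THRA with NR1D1 and CDK4 with TSPAN31, had none.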

How the data were processed

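Per the study's methods, reads were mapped to hg38 with TopHat2 and peaks called with MACS2 at default settings, whereas the submitters' processing notes name fastp, HISAT2 and MACS2. The methods describe fragmented, DNase-treated RNA and the labels UV-fixed, lysed cells. Use of the input as control, and tool versions, are not given in the sources used here. The authors deposited for each peak a fold enrichment (a linear ratio), −log10 of the p-value and q-value, a score, and the summit offset. The p-value and the score deposited by the authors were not used. No read numbers accompany the peaks, so library depth is unknown and precision rests on how many peaks are counted.

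Exons were taken from GENCODE version 44. GGAC and DRACH were searched on both strands within 50 nt of the summit, and a match had to lie wholly in that window. Where DRACH replaced GGAC as an alternative, the strand with more DRACH was named. "Further" peaks had summits in exons of that gene's strand alone. Each list was tested on its own by exact McNemar, Fisher or binomial tests, and the scripts were tested on simulated data. Named overlaps were ranked by the geometric mean of fold enrichment over both lists, 1 locus per gene pair: the 8 highest coding pairs with GGAC on 1 strand in both lists, the 5 highest with GGAC on the coding and the 5 on the noncoding strand alone, the 3 highest with GGAC on both strands, on neither and in 2 noncoding genes, and every locus of the gene lists, with chromosome 8 skipped. A pair of the gene lists and some of the sequences at these loci are not reported here. The overlaps and lists were chosen with earlier results of these data known. Python 3.11.15, numpy 2.4.6, pandas 2.3.3, scipy 1.17.1, pysam 0.24.0 and matplotlib 3.10.9 were used. The alternatives were other thresholds, exons, genes, windows, motifs, overlap rules, peak midpoints and each replicate left out.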

Additional observations from a re-analysis of the deposited data

How the results depend on the processing

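Of the values recomputed under an alternative, 169 kept their direction, side of the threshold or size, and those that did not are given here in percentage points, with shares as points above 50 and the cause not tested. The difference in sharing between overlap and other exonic peaks changed sign at q of 0.01 or less (−0.10) and of 1e-05 or less (−0.25) in replicate 1, with protein-coding and lncRNA genes alone (−0.38 and −0.26), with summits within 100 bp (−0.38 and −1.61) and with 50% overlap (−2.54 and −4.34). The difference in GGAC on exactly 1 strand turned to −0.59 in replicate 2 with DRACH, where windows with more DRACH on 1 strand counted. By presence, DRACH lay on exactly 1 strand in 32.5% of overlap windows there, against 31.5% of exonic windows on 1 strand. In replicate 2, fold enrichment of 5 or more took below the threshold the gap of coding overlaps to coding exons (−9.58), the further-peak clue (12.2) and the extension clue (10.4). Canonical exons did so for the gap (−6.20) and the extension clue (10.2), and 25 nt for the coding strand (4.40) and the further-peak clue (3.90). Pairs of 2 coding genes alone did so for the further-peak clue (7.78 and 0) and the extension clue (8.25 and 12.3). In replicate 1 the gap passed with 25 nt (−7.78), 100 nt (−8.17) and DRACH (−10.4), and the stop codon clue with 100 nt (16.7) and DRACH (17.7, and 17.6 in replicate 2). Fold enrichment of 5 or more left 532 and 285 overlap peaks, 588 loci and a share of 4.61% in replicate 2. Canonical exons left 581 and 367 peaks, 626 loci and shares of 3.15% and 3.03%. Protein-coding and lncRNA genes alone gave 4.66% in replicate 1. Leaving out 1 replicate gave 652 to 1001 loci. With only the strongest overlap peak per gene pair, an alternative chosen after seeing the data, the coding strand was 16.3 and 13.8 points above the noncoding strand. No paired analysis was possible because the input samples had no peak list to pair with. Without read numbers, absence of a peak cannot be told from low depth.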
